A study of Mus musculus with 2 samples.

Results

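Arg1-low C1q macrophages are tumour macrophages that carry the complement C1q transcripts but little arginase 1, and they were studied in CD45+ cells from B16-F10 tumours, a transplantable melanoma line of the mouse. Members were the barcodes with at least 1000 UMIs, at least 300 genes and at most 10% mitochondrial UMIs in which C1qa, C1qb and C1qc together reached 10 UMIs per 10000 and Arg1 stayed under 5 per 10000. Barcodes with more than 1 UMI of Cd3d, Cd3e and Cd3g, more than 4 of Mki67 and Top2a, or 3 or more of Lyve1, Cbr2 and Ednrb were left out, which keeps T cells, cycling cells and resident-like macrophages apart. Members were thus chosen by their own C1q and Arg1 levels, and these genes are described without a test. The rule found 1076 members among 11238 barcodes of the DGAT1 knockout library and 1697 among 8978 of the WT library, 2773 of 20216 in all. C1q macrophages at or above the Arg1 limit, 575 and 659 cells, served as the comparison and are called Arg1-high.

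The knockout group consisted of tumours grown from B16-F10 cells labelled DGAT1-knockout, and the WT group of tumours from B16-F10 cells labelled WT. DGAT1 makes triglyceride from diacylglycerol. All tumours were taken 14 days after injection, 3 per group, were digested with collagenase D and DNase I, and gave living CD45+ cells by sorting. No other treatment, and neither the strain, age or sex of the hosts nor whether the knockout line is a single clone, is given in the labels. The macrophages are cells of the host, and the genotype is a property of the tumour line. The labels name melanoma as the cell type, after the line, whereas the sort was for CD45, the mark of blood-derived cells. Each group was sequenced as 1 library in which cells carry no tumour of origin, and the labels do not say whether tumours were pooled. A test of genotype therefore could not be made, and every difference given describes 2 libraries with no replicate check.

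C1q is the recognition protein of the classical complement pathway, and in tumours its transcripts are a common mark of monocyte-derived macrophages. Arginase 1 breaks down arginine and is a textbook gene of wound-healing and suppressive macrophages, so the Arg1 limit divides C1q macrophages along a familiar line. Ccl8 encodes a chemokine, Vcam1 an adhesion molecule, and Ms4a7 a tetraspan membrane protein of mature macrophages. MHC class II molecules present peptides to CD4 T cells. Their genes share promoter elements, the X and Y boxes, through which the coactivator CIITA acts.

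The libraries held 202946827 UMIs (knockout) and 235652476 UMIs (WT), of which Arg1-low cells held 16848807 and 29634156. In every pair of values the knockout value is given first. Arg1-low cells had medians of 13602 and 15934 UMIs and 3743 and 3997 genes, and Arg1-high cells had medians of 12541 and 13687 UMIs. Levels are CPM, the UMIs of a gene summed over the cells of a class and library and scaled to a total of 1000000. Intervals are exact 95% intervals of UMI or cell counts and cover counting error only. They leave out the spread between tumours and the uneven spread of UMIs over cells. A gene was measured when it had at least 50 UMIs in the cells compared, and a ratio was called at 1.5-fold or more either way. The libraries shared 25 barcodes among those that passed the filter and none among C1q macrophages.

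Free RNA set a limit on the rule. In barcodes of at most 100 UMIs, taken to hold free RNA and no intact cell, C1q made up 17.3 UMIs per 10000 (knockout) and 48.1 (WT), so pure free RNA would reach the C1q minimum. Melanoma transcripts (Pmel, Mlana, Dct, Tyr, Tyrp1) put the free RNA among the UMIs of Arg1-low cells at most at 11.2% and 10.1%. It was concentrated in shallow barcodes. The 83 and 259 members under 3000 UMIs gave 78.99% and 90.9% by the same estimate, against 10.6% and 8.96% in deeper members. Shares of members are therefore also given from 3000 UMIs.

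The markers given for the class were found in it, unequally between the libraries. Cells were thinned to 5000 UMIs each, which left 933 and 1353 members and left out 143 and 344. C1qb, a gene of the rule, was found in 99.7% and 99.8% of thinned members. Ms4a7 was found in 42.6% and 73.6%, Ccl8 in 36.4% and 57.2% and Vcam1 in 20.8% and 28.4%. T cells of the same libraries (median 17451.5 and 20108 UMIs), which should lack these genes, showed Ms4a7 in 1.31% and 4.41%, Ccl8 in 5.12% and 11.96% and Vcam1 in 0.426% and 0.924%. Adgre1, which encodes F4/80, was found in 57.4% and 70.6% of members, Csf1r, the receptor of the macrophage growth factor CSF1, in 74.1% and 58.5%, and Mertk, a receptor for dying cells, in 42.4% and 37.99%. Ccl8, Ms4a7 and Vcam1 thus marked part of the class, a larger part in the WT library.

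Transcripts of other cell types were also counted. The 12 T and NK cell genes summed to 86.7 and 66.7 CPM, and the 9 dendritic cell genes to 95.2 and 41.3 CPM, while none of either list was at 0. The 6 neutrophil genes summed to 184 and 114 CPM, with Ly6g at 0 in both libraries. The 7 melanoma genes summed to 525 and 559 CPM, of which Mitf, a transcription factor that macrophages also use, held 453 and 347 CPM. The 8 monocyte genes summed to 1391 and 833 CPM in Arg1-low cells and to 2089 and 1993 CPM in Arg1-high cells. Ly6c2, a surface protein of classical monocytes, was found in 36.9% and 20.5% of thinned members, and Ccr2, the receptor that brings monocytes into tissue, in 54.7% and 31.6%. T cells also use both genes and showed them in 57.1% and 56.1% (Ly6c2) and 21.9% and 15.1% (Ccr2). Their part in the comparisons of the libraries was not tested, and the counts that follow are also given without the cells that hold 1 or more UMIs per 10000 of Ly6c2 and Ccr2 together.

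Arg1-low cells took a smaller share of the knockout library. They were 9.57% (9.04 to 10.1) of the barcodes that passed the filter there and 18.9% (18.1 to 19.7) of those in the WT library. The knockout share was 0.507 of the WT share (0.469 to 0.547). From 3000 UMIs the shares were 9.53% and 17.5%. Without the cells that hold Ly6c2 and Ccr2 UMIs, 418 and 1099 members remained, 3.72% and 12.2%, and the ratio came to 0.304. Among C1q macrophages of any Arg1 level, Arg1-low cells made up 65.2% (62.8 to 67.5) and 72.03% (70.2 to 73.8). The Arg1-high share of all barcodes was 5.12% and 7.34%, a ratio of 0.697 (0.622 to 0.781). The sort and the loading of each library set what these shares are shares of, and their effect was not tested.

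The cells next to the limits of the rule are given here as a description. Just under the Arg1 limit, at 4 to 5 UMIs per 10000, lay 33 and 38 cells, and just above it, at 5 to 6, lay 29 and 45. Most members were far from it, since 744 (69.1%) and 1234 (72.7%) had no Arg1 UMI. The cells under the Arg1 limit had Ccl8 at 747 and 1237 CPM and those above it at 1649.8 and 1448 CPM. Just inside the C1q minimum, at 10 to 12 per 10000, 57 and 60 cells had Ccl8 at 31.3 and 119 CPM and Ccr2 at 552 and 361 CPM. Just outside it, at 8 to 10, 89 and 94 cells had Ccl8 at 161 and 368 CPM and Ccr2 at 593 and 310.4 CPM. Ccl8 was thus higher just outside than just inside both limits, in these small sets of cells.

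C1q itself was spread over a wide range, and lower in the knockout library. Its median was 42.9 UMIs per 10000 there (5th percentile 11.9, 95th 132) and 67.4 in the WT library (5th percentile 13.4, 95th 161). Because C1q chose the members, this is a description. Cells at 10 to 30 UMIs per 10000 made up 37.0% of knockout and 23.1% of WT members, and cells at 100 or more made up 13.4% and 29.4%. The bins between them, 30 to 60 and 60 to 100, held 28.2% and 21.5% of knockout members and 22.3% and 25.2% of WT members.

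**Figure D1:**
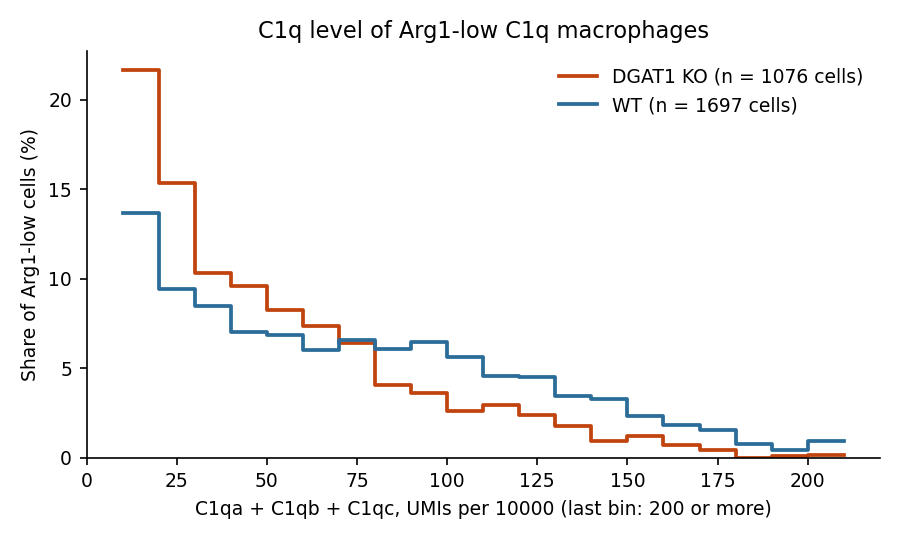
Share of Arg1-low cells (vertical axis, %) by summed C1q level (horizontal axis, UMIs per 10000, bins of 10, the last holding 200 or more), with 1 line per library. The knockout line lies above the WT line in every bin under 70 UMIs per 10000 and below it in those from 70 upwards.

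Several genes followed the C1q level within each library. Ccl8 was at 85.1 and 227 CPM in cells with C1q of 10 to 30 per 10000 and at 1973 and 2014 CPM in cells with 100 or more. Ms4a7 went from 81.9 and 214 CPM to 882 and 1019.5 CPM over the same bins. Ly6c2 went the other way, from 395 and 412 CPM to 62.03 and 24.97 CPM, and so did Il1b, the gene of interleukin 1 beta, from 601 and 543 CPM to 60.4 and 26.9 CPM. The cells thus ran from a side with more monocyte and interleukin transcripts and less C1q to a side with more C1q, Ccl8 and Ms4a7, and the libraries filled these sides unequally.

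Co-detection in single cells showed the same arrangement. Of 774 WT cells with Ccl8, 86.05% had Ms4a7, against 56.99% of 579 without Ccl8. Of 340 knockout cells with Ccl8, 72.9% had Ms4a7, against 25.1% of 593 without it. Ly6c2 was rarer in cells with Ccl8, 17.6% against 47.9% in the knockout library and 12.7% against 30.9% in the WT library. These are shares of cells thinned to 5000 UMIs within a library, given as a description.

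Across all genes, the libraries differed more in Arg1-low than in Arg1-high cells by the count of genes past 1.5-fold, a difference that was not tested. Of 12044 genes measured in Arg1-low cells, 1047 (8.69%) were at least 1.5-fold higher in the knockout library and 670 (5.56%) at least 1.5-fold lower. In Arg1-high cells, 428 (4.13%) of 10370 were higher and 380 (3.66%) lower. The median log2 ratio over all genes was 0.03 in Arg1-low and -0.00 in Arg1-high cells. When the cells that hold Ly6c2 and Ccr2 UMIs were left out, the counts in Arg1-low cells were 730 higher and 514 lower. With the 4 C1q bins weighted alike, 645 genes were higher and 662 lower. The first of these settings left fewer cells in which a gene could reach the UMI minimum. The number of genes measured under either setting is not given here, so these counts cannot be set against 8.69% and 5.56%. The same limit holds for the counts of list members given below for settings that leave out or reweight cells.

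Dgat1, the gene targeted in the tumour line, was at 15.8 CPM (knockout, 13.9 to 17.8) and 12.4 CPM (WT, 11.1 to 13.7) in Arg1-low cells. Since these are host cells, this does not check the labels, and free RNA could give 40.1% and 36.9% of its UMIs.

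MHC class II presentation was higher in knockout Arg1-low cells. Of the 12 genes of this list, all measured, 10 were at least 1.5-fold higher (8.69% of all genes) and none was lower (5.56% of all genes), with a median log2 ratio of 0.68. Ciita, the master coactivator of the class II genes, was at 234 CPM (knockout, 227 to 242) and 85.04 CPM (WT, 81.7 to 88.4), a log2 ratio of 1.46 (1.39 to 1.53). It was found in 50.7% and 25.2% of thinned members and in 2.701% and 1.49% of T cells. The class II chains followed with smaller ratios. H2-Aa was at 3143 and 1939.6 CPM (log2 ratio 0.70), H2-Ab1 at 2890.3 and 1787 CPM (0.69) and H2-Eb1 at 2967 and 1726 CPM (0.78). Cd74, the invariant chain that escorts class II molecules, was at 6469 and 4249 CPM (0.61). H2-DMa and H2-DMb1, which help to load peptides, were at 420.3 and 265 CPM (0.67) and 379 and 242 CPM (0.65). Ctss, the protease that trims the invariant chain, was at 2489 and 2429 CPM, a log2 ratio of 0.03, and Rfx5, a subunit of the X box factor, at 5.64 and 4.79 CPM (0.23).

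Both H2-Ab1 and Ciita were higher in the knockout library in each of the 4 C1q bins. In cells with C1q of 10 to 30 per 10000, H2-Ab1 was at 2829 and 2369 CPM, and in cells with 100 or more at 3048 and 1518 CPM. The log2 ratios of Ciita ran from 0.87 to 1.24. Fewer members passed the fold when cells with markers of other types were left out, which also left fewer cells in which to measure them. Without the cells that hold Ly6c2 and Ccr2 UMIs, 8 class II genes were higher, and the median was 0.87. Without cells that hold 2 or more UMIs of dendritic cell, neutrophil and B cell markers, 7 were higher, and the median was 0.62. In Arg1-high cells, 2 of 10 measured class II genes were higher (4.13% of all genes) and 1 was lower (3.66%), with a median of 0.39. MHC class I genes differed little in Arg1-low cells. Of 12, 1 was higher, near the 8.69% of all genes, and none was lower (5.56%), with a median of -0.20. The gene that was higher was Nlrc5, the class I counterpart of Ciita, at 213 and 138 CPM.

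The promoters of 2 class II chains show the elements that CIITA acts through. They are printed because, of the 9 list members searched, only these 2 held both sets of letters. Each runs from 250 bases before to 50 bases after the start of the gene, 5′ to 3′ on the coding strand, from RefSeq on GRCm38.p6. H2-Aa lies at chr17:34287774-34288073 on the minus strand and H2-Eb1 at chr17:34305617-34305916 on the plus strand. Capitals mark GCAACT, the core of the X box, and then CTGATTGG, the Y box, with 24 bases between them in H2-Aa and 23 in H2-Eb1.
H2-Aa: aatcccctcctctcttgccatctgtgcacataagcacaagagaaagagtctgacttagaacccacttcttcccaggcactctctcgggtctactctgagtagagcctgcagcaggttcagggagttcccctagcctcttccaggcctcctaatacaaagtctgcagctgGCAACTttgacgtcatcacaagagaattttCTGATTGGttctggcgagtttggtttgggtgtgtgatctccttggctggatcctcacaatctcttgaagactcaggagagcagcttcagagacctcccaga
H2-Eb1: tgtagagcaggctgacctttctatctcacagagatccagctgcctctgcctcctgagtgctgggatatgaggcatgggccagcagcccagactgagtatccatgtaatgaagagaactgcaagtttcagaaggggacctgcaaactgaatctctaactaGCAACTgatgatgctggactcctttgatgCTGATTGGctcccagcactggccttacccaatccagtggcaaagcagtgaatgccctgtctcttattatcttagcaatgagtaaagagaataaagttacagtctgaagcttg
Both strands were searched for these letters in all 32851 promoters of this length, and 4.10% held the Y box, 10.9% the X box core and 0.466% both. Of the 12 class II list members, 9 were searched, of which 3 held the Y box and 2 held both. The other members had no entry or lay on a chromosome left out for the list but kept among all promoters. H2-DMa and H2-DMb1, which were also higher in the knockout library, held neither. A match describes letters in this window and is not evidence of binding.

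Inflammatory cytokines and enzymes were higher in the knockout library, in some cases in few cells. Of 12 measured genes, 7 were at least 1.5-fold higher (8.69% of all genes) and none was lower (5.56%), with a median log2 ratio of 0.86. Il1b was at 326 CPM (knockout, 317 to 334) and 135 CPM (WT, 130.4 to 139), a log2 ratio of 1.28 (1.22 to 1.33), and was found in 33.2% and 16.9% of thinned members and 3.62% and 2.002% of T cells. Ptgs2, the prostaglandin-forming cyclooxygenase, was at 169.7 and 85.9 CPM (0.98). The costimulatory ligands Cd80 and Cd86 were at 69.3 and 21.2 CPM (1.71) and 400.1 and 239.7 CPM (0.74). Il12b was at 10.5 and 2.53 CPM, but 10 cells held 100% of its knockout UMIs, and for Il6, at 6.65 and 1.72 CPM, 10 cells held 89.3%. Tnf and Nos2, the inducible nitric oxide synthase, stayed under 1.5-fold, at 171 and 139.9 CPM and 250.4 and 202 CPM. The Il1b difference grew with C1q, from a log2 ratio of 0.15 at 10 to 30 per 10000 to 1.35 at 60 to 100 and 1.17 at 100 or more. With the 4 bins weighted alike, 4 of the list were higher, with a median of 0.47. With the Ly6c2 and Ccr2 cells left out, 7 were higher, with a median of 0.95.

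Of 16 chemokines, 5 were higher in the knockout library (8.69% of all genes) and 1 was lower, near the 5.56% of all genes. Cxcl9, which attracts CXCR3+ T cells and is induced by interferon gamma, was at 1393 CPM (knockout, 1376 to 1411) and 847 CPM (WT, 836 to 857), a log2 ratio of 0.72 (0.69 to 0.74). It was found in 66.7% and 59.3% of thinned members and 5.33% and 4.16% of T cells, and it was higher in all 4 C1q bins, by 0.76 to 1.22. In cells with C1q of 100 or more per 10000 its level was 2335 and 1144 CPM. Cxcl10, a second CXCR3 ligand, was at 905 and 677 CPM (0.42). The rest of the interferon gamma list stayed under the fold, with 1 of 14 higher (Cxcl9) and a median of 0.23. The type I interferon list had a median of -0.33 with 1 of 11 lower, Ifit3 at 172 and 265 CPM.

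Ccl8 was the 1 chemokine past the fold in the other direction. It was at 708 CPM (knockout, 696 to 721) and 1305 CPM (WT, 1292 to 1318), a log2 ratio of -0.88 (-0.91 to -0.85). This difference shrank as C1q rose, from -1.42 at 10 to 30 per 10000 to -0.03 at 100 or more. Ms4a7, at 348 CPM (knockout, 339 to 357) and 688 CPM (WT, 678 to 697) (-0.98), likewise went from -1.39 to -0.21. Free RNA held Ccl8 at 2.60 and 8.33 UMIs per 10000 and Ms4a7 at 0.907 and 2.83. The part of free RNA in the differences by C1q bin was not tested. Vcam1, at 171 and 163 CPM (0.08), was lower in 1 bin and higher in the other 3. The monocyte chemokines Ccl2 and Ccl7 were at 975 and 1142 CPM and 585 and 752 CPM, both under the fold. Among the 14 macrophage identity genes, 4 were lower (5.56% of all genes) and none was higher (8.69%). The lower genes were Ccl8, Ms4a7, Cd68 and C1qc, the last a gene of the rule. Without the cells that hold Ly6c2 and Ccr2 UMIs, 0 were lower and 3 higher, to be read beside the all-gene counts given above for that setting.

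**Figure D2:**
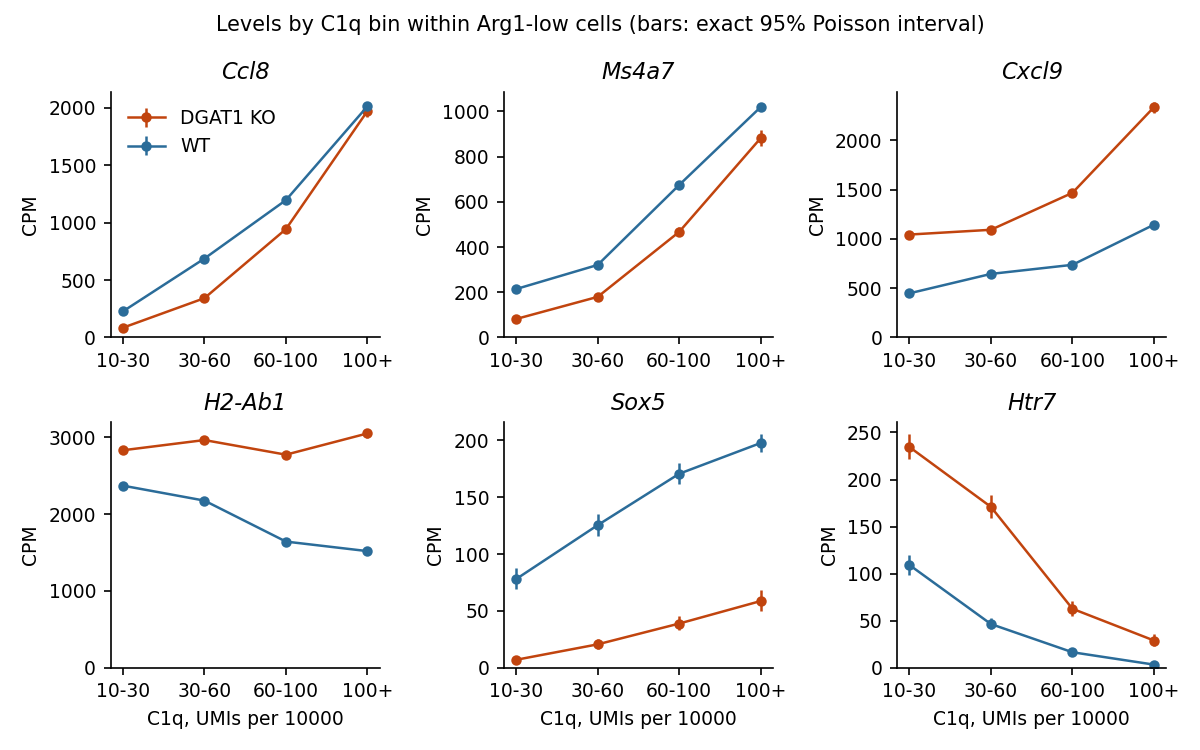
Levels (CPM, vertical axes from 0) of 6 genes in 4 bins of C1q level (horizontal axis, UMIs per 10000) within Arg1-low cells, 1 line per library, with exact 95% Poisson intervals. The lines of Ccl8 and Ms4a7 approach each other at 100 or more, those of H2-Ab1 and Cxcl9 lie apart there, Sox5 is lower and Htr7 higher in the knockout library in every bin.

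Single genes with the clearest differences were named by a rule. It took genes with at least 50 UMIs in at least 20 cells of the higher library and under 50% of them in 10 leading cells, ranked by the interval bound nearest to equality. It was met by 559 genes higher and 332 lower in the knockout library, and the 12 leading each way are given. All 24 kept at least 1.5-fold in the same direction without the Ly6c2 and Ccr2 cells and with the C1q bins weighted alike. Because the genes were ranked on these same cells, this is a description and not a check.

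Of the 12 higher genes, 5 encode receptors, a lectin and a membrane protein. Htr7, a serotonin receptor (chr19:35958734-36057507, minus strand), was at 137 CPM (knockout, 132 to 143) and 28.99 CPM (WT, 27.1 to 30.99), a ratio of 4.73 (4.37 to 5.12), and was found in 29.8% and 8.500% of thinned members and 1.67% and 0.513% of T cells. Mgl2, a lectin for galactose-type sugars (chr11:70130329-70137550, plus strand), was at 128 CPM (knockout, 122 to 133) and 30.3 CPM (WT, 28.4 to 32.4), a ratio of 4.21 (3.89 to 4.55), and was found in 17.9% and 6.13% of members and 0.924% and 0.308% of T cells. Mgl2 has a close paralog, Clec10a, and the sources used here do not say how reads that fit both were counted. Vdr, the vitamin D receptor, was at 33.9 and 6.14 CPM and was found in 12.97% and 2.51% of members and 0.746% and 0.205% of T cells. Il1rl2, the interleukin 36 receptor, was at 9.26 and 2.02 CPM. Plxdc2, a membrane protein, was at 169 and 47.6 CPM, with a UMI in 20.9% and 11.5% of members and 13.3% and 12.1% of T cells, so its WT share is at the T cell level.

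The other higher genes, among them the leading Fgf13 and Hs3st3b1, encode growth factors, enzymes and regulators. Nrg1, a growth factor of the neuregulin family, was at 38.1 and 8.504 CPM, and Cbfa2t3, a transcriptional corepressor, at 71.3 and 18.1 CPM. Peli2, a ubiquitin ligase of Toll-like receptor signalling, was at 16.6 and 3.04 CPM, Spint1, a protease inhibitor, at 30.7 and 7.46 CPM and Rab44, a small GTPase, at 5.58 and 0.945 CPM. Hs3st3b1, a heparan sulfate sulfotransferase, was at 19.9 and 2.700 CPM, with a UMI in 7.395% and 1.48% of members and 6.18% and 4.72% of T cells. Fgf13, an intracellular relative of the fibroblast growth factors, was at 57.1 and 8.13 CPM. Its share of members, 9.43% and 2.14%, lay below that of T cells, 19.7% and 13.04%, and the source of its UMIs in members was not tested.

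Mgl2 and Htr7 were found in part in the same cells, away from Ccl8. Of 167 thinned knockout cells with Mgl2, 49.1% had Htr7, against 25.6% of 766 without Mgl2. Ccl8 was found in 18.6% of the same cells with Mgl2 and in 40.3% without it. Ccl17, a chemokine that attracts CCR4+ T cells, was singled out after its values were seen. It was at 84.2 CPM (knockout, 79.8 to 88.7) and 0.911 CPM (WT, 0.6004 to 1.33), with its UMIs in 55 and 9 cells, and 10 cells held 84.3% of the knockout UMIs. Of the 35 thinned knockout cells with Ccl17, 65.7% had Mgl2 and 14.3% had Cd209a, a marker of type 2 dendritic cells, against 1.11% of cells without Ccl17. Of 8 measured dendritic cell markers, 7 were higher (8.69% of all genes) and 1, Xcr1, was lower (5.56%), and their part was not tested. Flt3 was at 5.22 and 1.28 CPM, Zbtb46 at 7.95 and 1.69 CPM and Cd209a at 10.4 and 2.801 CPM.

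**Figure D3:**
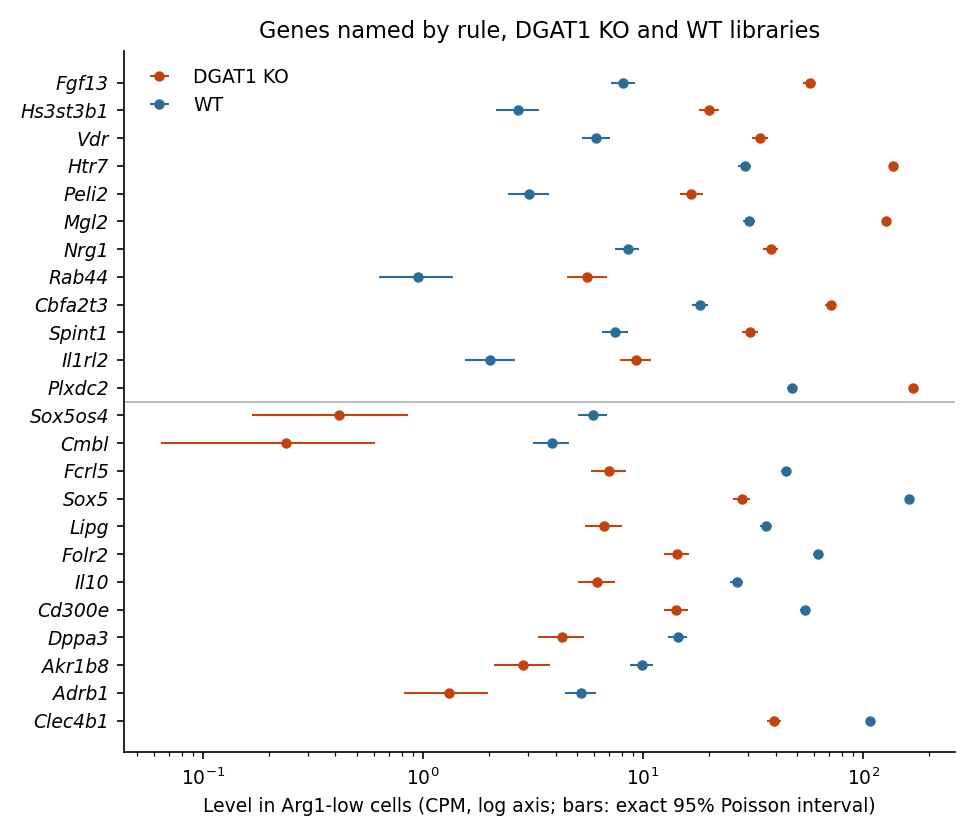
Levels of the 24 genes named by rule in Arg1-low cells (horizontal log axis, CPM), 1 point per library with the exact 95% Poisson interval. The 12 genes above the line are higher in the knockout library and the 12 below it lower, and no pair of intervals overlaps.

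The lower genes include Sox5, its antisense transcript and several surface receptors. Sox5, a transcription factor (chr6:143828425-144781977, minus strand), was at 28.01 CPM (knockout, 25.5 to 30.7) and 161 CPM (WT, 156 to 165), a ratio of 0.174 (0.158 to 0.191). It was found in 3.64% and 19.3% of thinned members and 1.21% and 2.16% of T cells. Sox5os4, at 0.415 and 5.91 CPM, is annotated on the opposite strand within the same locus. The sources used here state no strand setting, and whether reads of Sox5 were counted for it was not tested. Fcrl5, an Fc receptor-like protein (chr3:87435773-87500678, plus strand), was at 7.003 CPM (knockout, 5.797 to 8.39) and 44.7 CPM (WT, 42.3 to 47.2), a ratio of 0.157 (0.129 to 0.189). Cd300e, a myeloid activating receptor, was at 14.1 and 54.5 CPM, and Clec4b1, a C-type lectin of myeloid cells with a close paralog, at 39.3 and 107 CPM. Folr2, the folate receptor of many resident macrophages, was at 14.2 and 62.2 CPM and was found in 5.04% and 16.7% of members. Il10, the anti-inflammatory cytokine, was at 6.17 and 26.6 CPM. Its share of 1.93% and 6.65% stands beside 1.39% and 1.797% of T cells.

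Some of the other lower genes, but not Folr2, were found more often in cells with Sox5. Of 261 thinned WT cells with Sox5, 60.5% had Negr1, an adhesion molecule, against 17.7% of 1092 without Sox5. Fcrl5 was found in 36.4% against 5.77% of these cells, and Cd300e in 42.9% against 9.799%. Folr2 was found in 13.8% against 17.4%, and in the knockout library in 0 of 34 cells with Sox5, which allows a share of up to 8.82%, against 5.23% of cells without it. Ly6c2 was less frequent where Sox5 was found, 5.75% against 23.99%. The knockout library had 34 thinned cells with Sox5, of which 55.9% had Negr1 and 38.2% Cd300e. Sox5 rose with C1q in both libraries and was lower in the knockout library in every bin, from 7.06 and 77.99 CPM at 10 to 30 per 10000 to 58.7 and 198 CPM at 100 or more.

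The remaining lower genes were Lipg, Dppa3, Akr1b8, Adrb1 and Cmbl. Lipg, a secreted phospholipase, was at 6.65 and 36.2 CPM, with 78.6% of the knockout UMIs in 10 cells. Dppa3, best known from the germline, was at 4.27 and 14.4 CPM, and Akr1b8, an aldo-keto reductase, at 2.85 and 9.85 CPM. Cmbl, a hydrolase, had 4 and 114 UMIs. Adrb1, a beta adrenergic receptor, was at 1.31 and 5.197 CPM, but its share of members, 0.429% and 2.14%, lay below that of T cells, 5.37% and 4.72%.

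Genes of lipid-loaded macrophages were lower in the knockout library over all members, and less so in the cells without monocyte transcripts. Of 17 measured genes of the lipid-associated list, 7 were at least 1.5-fold lower (5.56% of all genes) and 1 was higher, with a median of -0.48. Plin2, the coat protein of lipid droplets, was at 403 CPM (knockout, 394 to 413) and 673 CPM (WT, 663 to 682), a log2 ratio of -0.74 (-0.78 to -0.70), and was lower in all 4 C1q bins, with log2 ratios of -1.03 to -0.64. Lpl, the lipoprotein lipase, was at 315 and 507 CPM (-0.68), Lipa, the lysosomal acid lipase, at 140.2 and 267 CPM (-0.93) and Fabp4, a fatty acid carrier, at 35.4 and 72.3 CPM (-1.03). Cd9, a tetraspanin, was the higher gene, at 135 and 74.6 CPM (0.85). Without the cells that hold Ly6c2 and Ccr2 UMIs, 2 genes of this list were lower, 2 were higher, and the median was -0.07.

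Genes of cholesterol efflux and LXR targets had a median near that of all genes, with 3 members past the fold. Of 11 measured, 3 were lower (5.56% of all genes) and none was higher (8.69%), with a median log2 ratio of -0.06. The lower genes were Nr1h3, Abcg1 and Pltp. Nr1h3, which encodes the sterol sensor LXR alpha, was at 44.99 and 90.7 CPM (-1.01), with the LXR targets Abcg1, a cholesterol exporter, at 124 and 212 CPM (-0.77) and Pltp, the phospholipid transfer protein, at 87.2 and 172 CPM (-0.98). Abca1, a second exporter and LXR target, was at 143 and 148 CPM (-0.06). Pparg, a fatty acid sensing nuclear receptor singled out after its values were seen, was at 74.6 CPM (knockout, 70.5 to 78.8) and 198 CPM (WT, 193 to 203), a log2 ratio of -1.41 (-1.50 to -1.32), and was lower in all 4 C1q bins, with log2 ratios of -1.47 to -1.01. Apoe, the main apolipoprotein of macrophages, was at 2076 and 1574 CPM (0.40), above the WT level but under the fold.

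Receptors for antibody, matrix genes and transcription factors split. Fcgr4, an activating Fc gamma receptor, was at 357 and 669 CPM (-0.91) and lower in all 4 C1q bins, while Fcgr2b, the inhibitory one, was at 430.1 and 260.4 CPM (0.72). Fn1, fibronectin, and Mmp12, the macrophage elastase, were at 171 and 56.4 CPM (1.60) and 242 and 107 CPM (1.17), and Timp2, a protease inhibitor, at 115 and 224 CPM (-0.97). Of 13 measured matrix and angiogenic genes, 5 were higher (8.69% of all genes) and 2 lower (5.56%). Among 14 transcription factors, 5 were higher, against the same shares, with Tfec, of the MiT family, at 48.4 and 18.5 CPM (1.39), and 1, Sox5, was lower. Pdcd1lg2, the ligand PD-L2 of PD-1, was at 86.1 and 25.4 CPM (1.76), with a UMI in 19.9% and 8.43% of members and 14.5% and 13.9% of T cells, while Cd274, which encodes PD-L1, was at 576 and 559.9 CPM (0.04). Slc7a11, the cystine importer, was at 30.1 and 12.8 CPM (1.24).

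The other lists are read against the same shares, 8.69% of all genes higher and 5.56% lower. Of 10 measured tissue-resident genes, 3 were lower, Folr2, Igf1 and Selenop, the last a selenium carrier at 164 and 272 CPM, and 1 was higher, Timd4. Of 9 complement genes, 2 were higher and 2 lower, with a median of -0.00. Itgax, which encodes CD11c of complement receptor 4, was at 80.4 and 45.5 CPM. Efferocytosis and scavenger receptors had 2 higher and 2 lower of 14, with Mertk at 189 and 142 CPM (0.41). Cd5l, a secreted macrophage protein with few UMIs, was at 0.415 and 3.61 CPM. In the iron and ferroptosis list, Hmox1, the haem-degrading enzyme, was at 467 and 704 CPM (-0.59) and Slc11a1, a metal transporter of phagosomes, had a log2 ratio of -0.59. Dissociation stress genes had 1 of 14 higher, Fosb, and a median of 0.24. None of the 12 cell cycle genes, none of the 16 hypoxia and glycolysis genes and none of the 16 lysosome genes passed the fold, with medians of -0.42, -0.25 and -0.21.

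Several of these genes differed between the libraries in Arg1-high cells as well. Sox5 was at 2.34 and 17.9 CPM there, a log2 ratio of -2.94, beside -2.52 in Arg1-low cells. Htr7 was at 62.3 and 16.4 CPM (1.93, beside 2.24) and Mgl2 at 54.8 and 21.7 CPM (1.34, beside 2.07). Cxcl9 was at 639 and 345 CPM (0.89, beside 0.72). Ciita, H2-Ab1 and Il1b differed less there, with log2 ratios of 0.65, 0.41 and 0.74 beside 1.46, 0.69 and 1.28. For Plin2, Pparg and Fcgr4 the Arg1-high ratios were -0.43, -0.95 and -0.53, beside -0.74, -1.41 and -0.91. Whether the ratios differ between the classes was not tested.

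**Figure D4:**
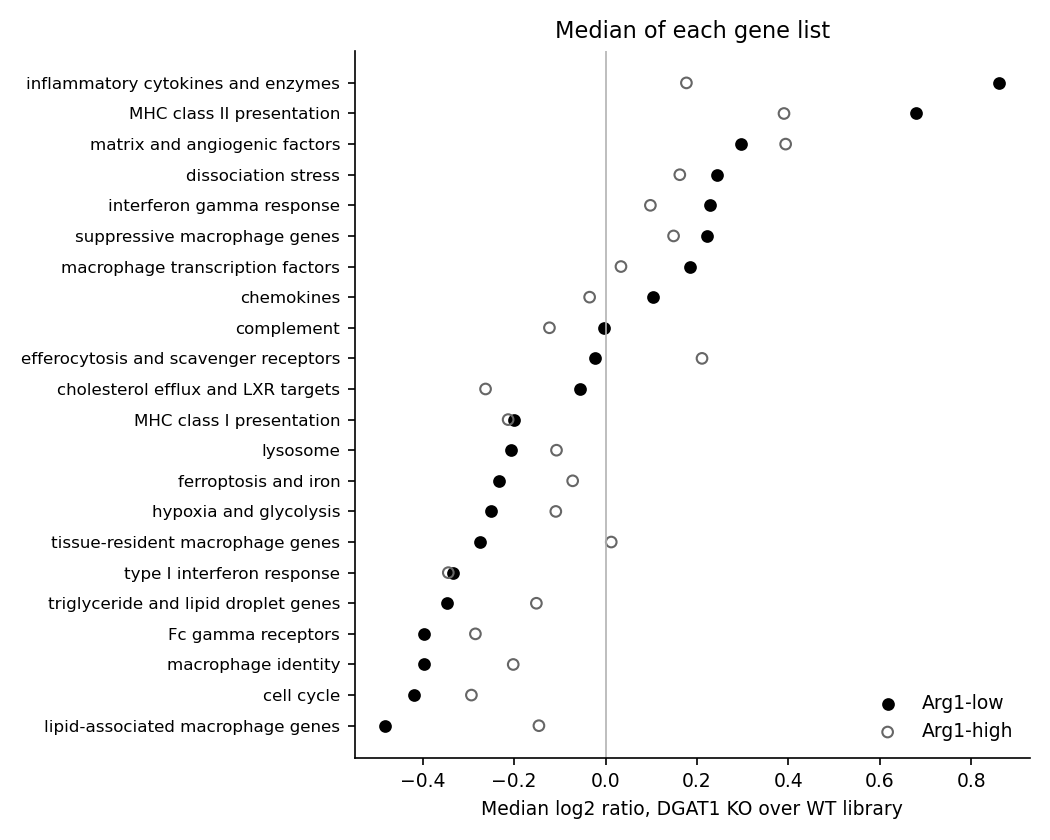
Median log2 ratio of the knockout over the WT library for each gene list other than those of other cell types (horizontal axis, log2), with filled points for Arg1-low and open points for Arg1-high cells. Among the lists drawn, inflammatory genes and MHC class II presentation lie farthest to the right in Arg1-low cells and the lipid-associated list farthest to the left.

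Monocyte genes moved with these results. Of the 8 genes of that list, 6 were at least 1.5-fold higher in knockout members (8.69% of all genes) and none was lower (5.56%), with a median of 0.96. Ccr2 was at 345 CPM (knockout, 337 to 354) and 158 CPM (WT, 153 to 163), a log2 ratio of 1.13 (1.07 to 1.18), and higher in all 4 C1q bins. Ly6c2 was at 220.0 and 141 CPM (0.64) over all members, but lower in the bins under 60 per 10000 and higher in those above. Of 7 melanoma genes, 6 were lower in the knockout library, Pmel at 10.1 and 39.2 CPM and Dct at 35.02 and 103 CPM, while Mitf was at 453 and 347 CPM. The source of these transcripts was not tested. S100a8 and S100a9, the calprotectin genes of neutrophils, were at 41.7 and 14.8 CPM and 54.1 and 15.1 CPM, with 93.6% and 94.6% of their knockout UMIs in 10 cells.

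Against Arg1-high macrophages of the same library, Arg1-low cells held less of the matrix, hypoxia and lipid-loading programs and more of class II presentation. Of 10965 genes measured in both libraries, 178 (1.62%) were at least 2-fold higher in Arg1-low cells in both and 159 (1.45%) at least 2-fold lower in both. At 1.5-fold, 823 (7.51%) were higher in both and 397 (3.62%) lower. Arg1-low cells gave a median log2 ratio over all genes of 0.18 in the knockout and 0.14 in the WT library, so the values below should be read against these shifts. When CPM were scaled by that median, 102 genes were 2-fold higher and 227 lower, against 178 and 159 unscaled. Arg1 itself, which set the classes apart, was at 59.8 against 3102 CPM (knockout) and 47.7 against 2674 CPM (WT), and free RNA could give 55.1% and 46.4% of its UMIs in Arg1-low cells.

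The naming rule, at 2-fold in both libraries, was met by 100 genes higher and 99 lower in Arg1-low cells. The lower genes encode matrix proteases, secreted factors, membrane proteins, enzymes and an antisense RNA. Spp1, osteopontin, was at 231 against 1371 CPM (knockout) and 248 against 1368 CPM (WT), log2 ratios of -2.57 and -2.46. Mmp8 and Mmp12, matrix proteases, had log2 ratios of -3.36 and -3.08 and of -2.18 and -2.75. Pf4, a chemokine, had -2.28 and -2.65, F13a1, a clotting transglutaminase, -2.05 and -2.33 and Thbs1, thrombospondin, -2.04 and -2.52. Ctsl, a lysosomal protease, was at 233 against 940.0 CPM (knockout) and 428 against 1719 CPM (WT). Pdpn, podoplanin, had log2 ratios of -2.38 and -3.04, the Notch ligand Jag1 -2.18 and -3.07, the growth factor Nrg4 -2.61 and -2.89 and Sphk1, a sphingosine kinase, -2.61 and -2.74. Junos, antisense to Jun, had -2.83 and -2.88, and whether reads of Jun were counted for it was not tested.

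The genes higher in Arg1-low cells include Negr1 and Cd300e, which were found more often in cells with Sox5. Negr1 was at 95.1 against 17.8 CPM (knockout) and 209 against 30.8 CPM (WT), log2 ratios of 2.42 and 2.76. Cd300e was at 14.1 against 1.52 CPM (knockout) and 54.5 against 10.3 CPM (WT), and Clec4b1 at 39.3 against 10.9 CPM (knockout) and 107 against 22.6 CPM (WT). Cd300e and Clec4b1 were also lower in the knockout than in the WT library. So was Sox5, which had 3.58 and 3.17 between the classes on the log2 scale but is not among the genes named for the classes. Slc13a3, a dicarboxylate transporter, had log2 ratios of 2.01 and 2.77, Dnase1l3, a secreted DNase, 2.13 and 2.25 and Abca9, of the ABC transporter family, 2.28 and 1.95. Tmem176b, a membrane channel-like protein, had 2.39 and 1.74, Klrb1b, an inhibitory lectin receptor, 2.07 and 1.73 and Mir99ahg, a microRNA host gene, 1.70 and 2.14. Xcr1, the receptor that marks type 1 dendritic cells, had 3.06 and 2.45, at 5.88 and 14.7 CPM in Arg1-low cells, where Clec9a, a second such marker, was at 18.5 and 7.12 CPM. BC035044 had 2.46 and 2.87, with a UMI in 4.07% and 4.88% of Arg1-low cells and 7.001% and 4.26% of T cells. This share does not stand clear of that of T cells.

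**Figure D5:**
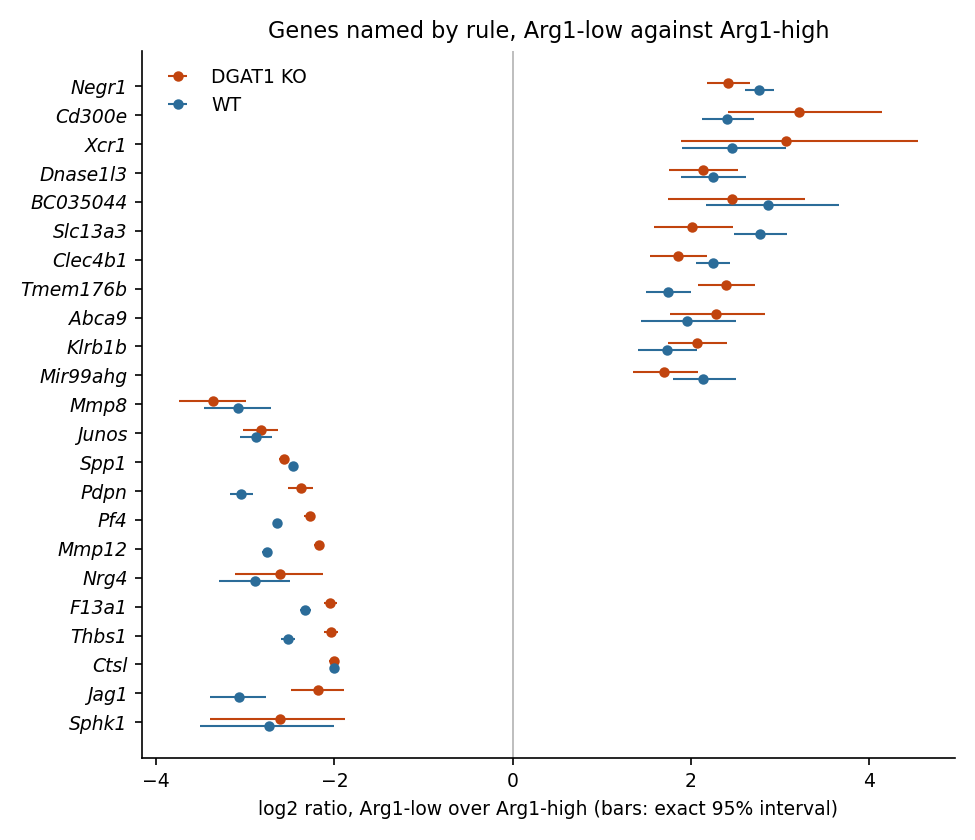
Log2 ratio of Arg1-low over Arg1-high cells (horizontal axis) for the genes named by rule, 1 point per library with the exact 95% interval. The libraries lie on the same side of 0 for every gene drawn, as the rule requires.

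Whole lists set the classes apart in both libraries. Hypoxia and glycolysis genes had medians of -0.87 and -0.75, with 9 of 16 at least 1.5-fold lower in both (3.62% of all genes) and none higher (7.51%). Egln3, an oxygen-sensing hydroxylase induced by low oxygen, was at 49.4 against 172 CPM (knockout) and 35.9 against 161 CPM (WT). The matrix and angiogenic list had medians of -1.12 and -1.09, 7 of 13 lower and none higher. Vegfa, the endothelial growth factor, was at 108 against 236 CPM (knockout) and 84.4 against 179 CPM (WT). The lipid-associated list had -1.09 and -0.70, 9 of 17 lower. Lpl went against that list, at 315 against 232 CPM (knockout) and 507 against 373 CPM (WT).

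Among chemokines, 8 of 16 were lower in Arg1-low cells in both libraries (3.62% of all genes) and 2 higher, near the 7.51% of all genes. Ccl2 and Ccl7, which call monocytes, had log2 ratios of -1.26 and -0.95 and of -1.29 and -0.98, and Ccl6 had -1.25 and -1.78. Cxcl9 was at 1393 against 639 CPM (knockout) and 847 against 345 CPM (WT), and Ccl5, for which free RNA could give 37.5% and 28.8% of UMIs, at 286 against 163 CPM (knockout) and 346 against 229 CPM (WT). Ccl8, a marker of the class, did not part it from Arg1-high cells, at -0.40 and 0.28, and Ms4a7 had 0.29 and 0.62 and Vcam1 0.47 and 0.87.

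MHC class II presentation had medians of 0.87 and 0.44, 4 of 12 at least 1.5-fold higher in both libraries (7.51% of all genes) and none lower. Ciita was at 234 against 62.3 CPM (knockout) and 85.04 against 39.7 CPM (WT). H2-DMb1 had log2 ratios of 1.17 and 0.87, H2-Ab1 0.61 and 0.32 and Cd74 0.45 and 0.21. The inhibitory ligand gene Cd274 was lower, at -0.38 and -0.27. Ly6c2 was also lower, at 220.0 against 342 CPM (knockout) and 141 against 323 CPM (WT), while Ccr2 was higher in the knockout and lower in the WT library, at 0.38 and -0.36. Of 12 cell cycle genes, 7 were higher in both libraries (7.51% of all genes), with medians of 0.60 and 0.74, although the rule held Mki67 and Top2a low in both classes. Stmn1, a regulator of the mitotic spindle, was at 51.8 against 23.3 CPM (knockout) and 76.2 against 29.3 CPM (WT), and free RNA could give 43.7% and 34.3% of its UMIs in Arg1-low cells.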

How the data were processed

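Count matrices of a 10x Genomics assay that hold all barcodes, empty ones included, were deposited by the authors, made with Cell Ranger 7.2.0 per the file headers, and mm10 is the build named in the submitters' processing notes. The sources used here do not give the gene annotation or any filter applied before deposit. UMI counts were used as deposited, 1 library per group, and positions given with genes are those of GENCODE M21 on mm10. The members and gene lists were chosen with earlier results of these data known, and some cell subsets were added after the values were seen.

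UMIs of the cells of a class were added up within each library and scaled to CPM (Python 3.11.15, numpy 2.4.6, scipy 1.17.1, pandas 2.3.3). Levels carry exact Poisson, shares exact binomial (Clopper-Pearson) and ratios exact conditional binomial 95% intervals. The calculation was tested on simulated Poisson counts, the kind the intervals assume. The simulation held no spread between cells or tumours, so it does not test the intervals for these data. The free RNA profile came from barcodes of at most 100 UMIs, and T cells for comparison had 5 or more Cd3 UMIs and at most 3 of Lyz2. Doublets were left in. Scrublet (scanpy 1.11.5) marked 355 barcodes (3.16%) and 191 (2.13%), 16 and 18 of them members, and leaving them out was an alternative. No sums of cells were compared by a test, because each group has 1 library.

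Genes were named by 1 rule. For the libraries it took genes with at least 50 UMIs in at least 20 cells of the higher library, under 50% of them in 10 leading cells, under 25% from free RNA and a ratio of at least 1.5, ranked by the interval bound nearest to equality, 12 each way. For the classes the same conditions held in both libraries at a ratio of at least 2. Genes of the rule, mitochondrial, ribosomal, haemoglobin, immunoglobulin, T cell receptor, Y-linked and unnamed model genes, Xist and Tsix were left out. Other X-linked genes were kept. The members of the fixed lists, the 5 marker genes and Dgat1 are described beside these, except for some genes that are not reported here. Alternatives changed the cell limits, the cells left out, the weights of cells and C1q bins, the scaling, the UMI minimum of a gene and the treatment of free RNA.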

Additional observations from a re-analysis of the deposited data

Results flagged for a closer look

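Gzma, a protease of cytotoxic lymphocytes, was flagged because its ratio between the libraries points in opposite directions in the 2 classes. The log2 ratio of the knockout over the WT library was 0.97 in Arg1-low cells (21.7 and 11.03 CPM) and -0.66 in Arg1-high cells (4.69 and 7.38 CPM), and this difference was not tested. Free RNA could give 92.2% and 78.3% of its UMIs in Arg1-low cells, and 10 cells held 83.8% of those in the knockout library.

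Fscn1, the actin-bundling protein of mature dendritic cells, was flagged because the classes differ in opposite directions in the 2 libraries. The log2 ratio of Arg1-low over Arg1-high cells was 1.34 in the knockout and -0.96 in the WT library, at 10.1 against 3.98 CPM (knockout) and 1.18 against 2.302 CPM (WT), and this difference was not tested.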

How the results depend on the processing

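No paired analysis was possible because each group has 1 library, and leaving out a replicate was not possible for the same reason. Every alternative that gives a share kept the knockout share of Arg1-low cells below the WT share. Without the cells that hold Ly6c2 and Ccr2 UMIs the shares of all barcodes were 3.72% and 12.2% (ratio 0.304) and the shares of C1q macrophages 68.9% and 83.0%. The WT share was 17.5% from 3000 UMIs and 17.9% from 5000 (ratio 0.566). At most 5% mitochondrial UMIs gave a knockout share of 8.67% (ratio 0.467), and 61.8% and 69.6% of C1q macrophages. An Arg1 limit of 2 gave 8.55% and 17.1% of barcodes and 58.2% and 65.3% of C1q macrophages, and a limit of 10 gave 10.6% and 20.8%, and 72.1% and 79.3%. A C1q minimum of 20 gave 7.50% and 16.3% (ratio 0.460), and leaving out cells with markers of other types 8.41% and 17.8%.

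Between the libraries, 653 genes were higher and 310 lower with at least 200 UMIs per gene, 645 higher with the C1q bins weighted alike, and 1224 lower with each cell weighted alike. Between the classes, the genes at least 2-fold higher in Arg1-low cells numbered 116 without the Ly6c2 and Ccr2 cells, 271 with free RNA subtracted, 102 with scaling by the median, 281 with each cell weighted alike, 97 with at least 200 UMIs (97 lower) and 509 without the 10 leading cells of each gene. The numbers of genes measured in these settings are not given here, so these counts are not shares. Members of the lists were lower in 26 cases without the Ly6c2 and Ccr2 cells and higher in 43 with the C1q bins weighted alike. Those 2 settings turned the log2 ratio of Ly6c2 between the libraries to -0.0332 and -0.00986. The first setting chose cells by Ly6c2 itself, so its Ly6c2 value follows in part from the filter. The neutrophil list turned to a median of -0.0111 between the libraries without the Ly6c2 and Ccr2 cells and to -0.20 between the WT classes without cells holding other types' markers. That last filter used S100a8 and S100a9, so its neutrophil value also follows in part from the filter. The cause of the other turns was not tested. Of the single gene values under an alternative, 989 stayed within their interval, 389 moved and 2 reversed. The 24 genes named by rule for each comparison kept fold and direction wherever gene values were computed. They were ranked on the same cells, so this is not a check of them. With 1 library a group, depth limits single genes: Cmbl rests on 4 knockout UMIs.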
